A study of Mus musculus with 12 samples.

Results

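RNA abundance was compared between mouse hearts that had lost the X-linked gene Ddx3x in their cardiomyocytes and hearts that kept it. The comparison took 6 of the 12 libraries of the series, which were all of its RNA libraries, and the 17165 of 21783 listed genes that had a value in each of the 6. All embryos were labelled female and were at embryonic day 10.5. WT hearts were Ddx3x fl/fl, so their Ddx3x alleles were floxed and kept. CM-KO hearts were labelled Ddx3x CM-KO, with the floxed alleles deleted by Tnnt2-Cre, which the promoter of cardiac troponin T drives in cardiomyocytes. The labels do not say whether a WT embryo could carry the Cre. Each library came from a pool of 20 hearts, with 3 separate pools per genotype, and the same pools also gave footprint libraries that entered no test of RNA. A whole heart also holds endocardium, epicardium, cushion mesenchyme and blood, which this Cre does not target. In such bulk samples fewer cells of a type and less RNA per cell cannot be told apart.

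DDX3X is a DEAD-box helicase that opens structured RNA and helps ribosomes to start on mRNAs with structured leaders. The amount of an mRNA reflects both how fast it is made and how fast it decays, and untranslated mRNAs are often, though not always, less stable. The transcription factor p53 is kept low by MDM2 and accumulates under DNA damage or faulty ribosome production, after which it turns on genes of cell cycle arrest and of apoptosis. In the embryonic heart at this stage cardiomyocytes contract, divide and build trabeculae at the same time.

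The targeted gene and markers of sex were read first. Ddx3x RNA stood at 294, 304 and 311 CPM (counts scaled to the TMM-adjusted library size) in the WT pools and at 281, 216 and 221 in the CM-KO pools, in the order of pools 1 to 3 used throughout. The highest CM-KO pool, pool 1, was just under the lowest WT pool. The log2 fold change of -0.34 (SE 0.10) did not pass the threshold of 0.05 (adjusted p = 0.0883, edgeR quasi-likelihood test, Benjamini-Hochberg adjustment over all genes tested). Leaving out CM-KO pool 1 made it pass (-0.48, adjusted p = 0.00941), and with CM-KO pool 3 alone it was -0.45 (adjusted p = 0.0996). Y-linked reads, which female hearts should lack, were present in the CM-KO libraries. The histone demethylase gene Uty gave 174, 108 and 11 counts in CM-KO pools 1 to 3, and its cells were blank in WT, where a blank hides at most 10 counts. CM-KO pools 1 and 2 therefore go against the female label for part of their reads, and the count of each list that held a call is also given with CM-KO pool 3 as the only CM-KO library. Lists with 0 calls below had 0 in that fit too. In that fit the lone library was assumed to vary like the WT pools.

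Other differences between pools ran across the genotypes. The first principal component held 54.3% of the variance and placed WT pool 3 (39.4) and CM-KO pool 1 (28) on 1 side and WT pool 1 (-23.9) and CM-KO pool 3 (-25) on the other. The second component, with 19.9% of the variance, placed the WT pools between 11 and 18.1 and the CM-KO pools between -17 and -11.4. A set of 39 very long neuronal and sensory genes, picked after the values were seen, followed the first component: their median deviation was 0.39, 0.15 and -0.61 in WT pools and -0.37, -0.04 and 0.45 in CM-KO pools. Afp, a yolk sac and fetal liver gene, ranged over 49.7 to 306 CPM in the WT pools and 20.2 to 220 in the CM-KO pools. Library totals were 14.7 to 19.9 M counts, and the 95% interval of a log2 fold change reached a median of 0.23 to either side.

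In all, 750 of 17147 genes tested, or 4.37%, differed at an adjusted p under 0.05. Of these, 612 were higher in CM-KO, or 3.57% of genes tested, and 138 were lower, or 0.805%. At an unadjusted p under 0.05 there were 2758 genes (16.1%), and in 3728 genes (21.7%) every pool of 1 genotype was above every pool of the other. Most changes were small. The median log2 fold change was 0.43 among genes called higher and -0.49 among genes called lower, and the smallest called were 0.25 and -0.25. Among called genes 287 changed by at least 0.5 (1.67%), of which 219 were higher (1.28%) and 68 lower (0.397%). At least 1 either way was reached by 28 called genes (0.163%), 23 of them higher (0.134%) and 5 lower (0.0292%). Over all genes tested the median was 0.01, and 90% of genes lay between -0.34 and 0.38. The share of counts that fell in the 612 higher genes was 6.48 to 6.70% in WT pools and 8.67 to 9.33% in CM-KO pools, and the share in the 138 lower genes was 3.55 to 4.79% and 2.60 to 2.80%, both fixed in direction by the choice of genes.

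The number of calls depended on the libraries. Leaving out WT pool 1, 2 or 3 gave 557, 207 and 783 calls, and leaving out CM-KO pool 1, 2 or 3 gave 513, 287 and 367. With CM-KO pool 3 alone 126 genes were called, 102 higher and 24 lower, of which 125 were among the 750 with the same sign. All 750 kept their sign in that fit, with a median of 0.44 for the higher and -0.53 for the lower genes. That fit shares 4 libraries with the full one, so the kept signs were largely fixed by the choice of genes. With the long-gene level of each pool as a covariate, a setting added after the values were seen, 1686 genes were called, 1239 higher (7.23%) and 447 lower (2.61%), and 748 of the 750 were among them. Below, "rose" and "fell" are used for genes called with all 6 pools. Separation of the pools of a called gene, where it is given below, largely follows from the call. Of 128 called genes that the naming rule selected, 54 kept their call with each pool left out in turn. A gene named below as rising or falling is one of those 54 or passed the same check, unless its values without the deciding pools are given. Of the 54, 32 were also called with CM-KO pool 3 alone. The rises of Cgref1, Zfp365, Fos, Eda2r, Tnfrsf10b, Gnas, Ccnd2, Mthfd2, Hspa4l, Tnnt1, Spry4, Srm, Neat1, Ccng1 and Bax and the falls of Hjv, A530016L24Rik, Cav3, Wdr93, Mylpf, Kcne1 and 2810429I04Rik kept their sign there and missed the threshold (adjusted p = 0.0509 to 0.172).

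**Figure D1:**
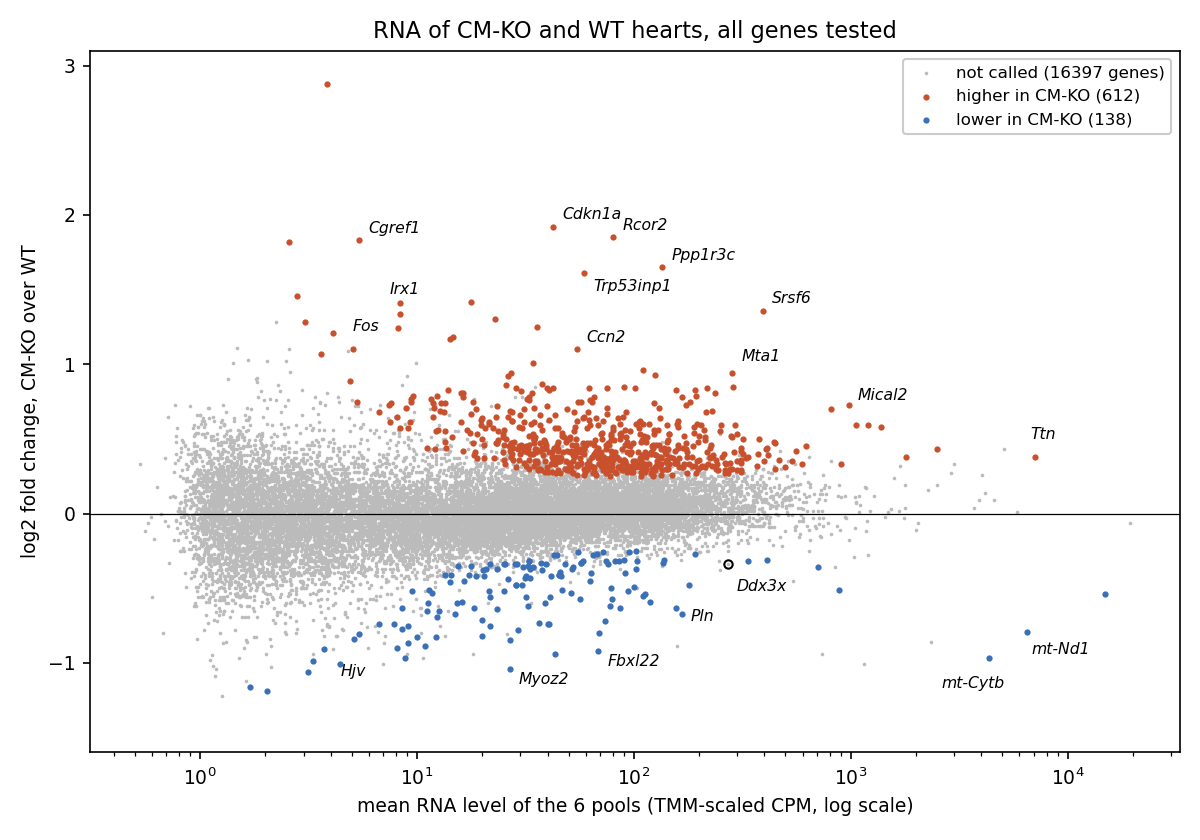
Log2 fold change of CM-KO over WT against the mean RNA level of the 6 pools (TMM-scaled CPM, log axis), with 1 point for each of the 17147 genes tested, red for the 612 called higher, blue for the 138 called lower and grey for the rest. The open circle is Ddx3x at -0.34, Cdkn1a stands at 1.92 and Rcor2 at 1.85, and most called genes lie within 1 of zero.

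Calls were unevenly spread over levels and kinds of gene. From the lowest to the highest quintile of RNA level, 0.117, 1.17, 4.11, 7.23 and 9.24% of genes were called. In the top quintile, above 76 CPM, 286 genes were higher and 31 lower, while in the middle one, from 11 to 31.7 CPM, 97 were higher and 44 lower. Among 14620 protein-coding genes 604 were higher (4.13%) and 128 lower (0.876%). Among 2447 long non-coding RNA genes 8 were higher (0.327%) and 10 lower (0.409%), with intervals reaching a median of 0.71 to either side, so that small changes were not detectable there. Coding genes in the shortest quintile by total exon length counted 112 higher (3.83%) and 38 lower, and those in the longest, above 10143 bases, 139 higher (4.75%) and 14 lower. By gene span the rises ran the other way. The shortest quintile counted 143 higher (4.89%) and 35 lower, and the longest 101 higher (3.45%) and 20 lower. By chromosome the share called higher ran from 1.99% on X (11 of 553 genes) to 4.49% on chromosome 4, and on X 6 genes (1.08%) were lower.

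**Figure D2:**
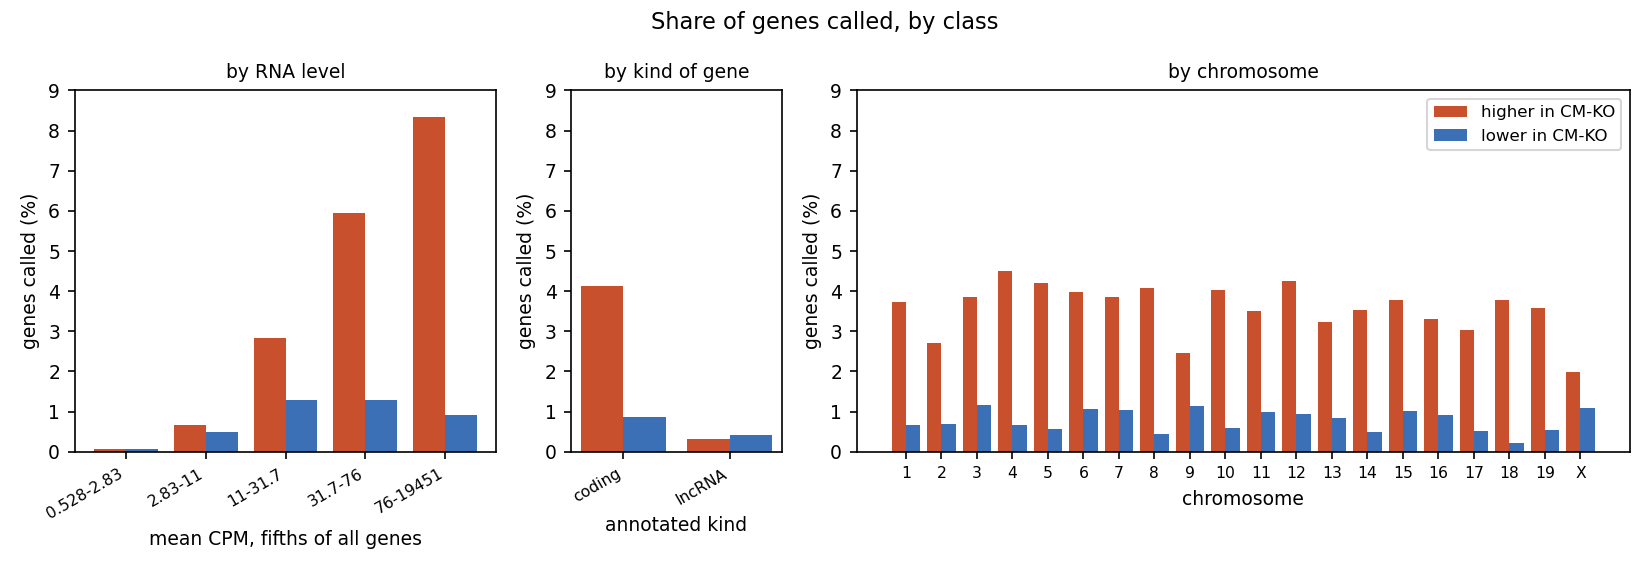
Share of genes called higher (red) and lower (blue) in CM-KO, in percent of the genes tested in each class, by quintile of mean RNA level (CPM), by kind of gene and by chromosome. The share called higher climbs from 0.0583% in the lowest to 8.34% in the highest quintile of level, and X has the smallest share of the chromosomes plotted.

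Some targets of p53 that act in cell cycle arrest and in feedback on p53 were called higher in CM-KO. Of 27 such genes 10 rose (37.0%) and 0 fell, with a median log2 fold change of 0.29. Over all genes tested 3.57% were higher and 0.805% lower, and these shares stand beside every list below. The lists were chosen with earlier results of these data known, so their counts are descriptions and were not tested. The largest rise among the 27 was in Cdkn1a, which encodes the cyclin-dependent kinase inhibitor p21 (chr17:29309936-29319701). The p53 consensus, a 20-base element of a pair of like repeats, was searched within 5 kb of the canonical start site of each gene on GRCm39, with at most 1 mismatch outside the fixed C and G of each repeat, and both strands were covered because the consensus is a palindrome. Such an element lay near 315 of 17067 genes scanned (1.85%), near 17 of the 612 higher genes (2.78%), near 3 of the 138 lower genes (2.17%) and near 7 of the 27 arrest and feedback targets (25.9%). The last share is of a list of known p53 targets, so a high share was built into the list and says nothing about these data. The elements of the rising members are shown on the strand of their gene because they are the known kind of p53 binding sequence, with the core of each repeat in capitals. Members with an element that did not rise are not shown, so the elements shown do not tie an element to a rise. A match is a description of the letters, and no match says only that these letters are not in the window.
Cdkn1a, chr17:29309902-29309921, plus strand, centred 2826 bases upstream of the canonical start site: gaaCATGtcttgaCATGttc
Ccng1, chr11:40646289-40646308, minus strand, centred 160 bases upstream: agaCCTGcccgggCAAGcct
Ccng1, chr11:40645763-40645782, minus strand, intron: acgCAAGcccgggCTAGtct
Zmat3, chr3:32424300-32424319, minus strand, centred 4401 bases upstream: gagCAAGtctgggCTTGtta
Zmat3, chr3:32418480-32418499, minus strand, exon, no mismatch: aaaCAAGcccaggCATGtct

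Cdkn1a RNA was 20.0, 17.8 and 15.7 CPM in WT pools and 58.4, 75.9 and 67.5 in CM-KO pools. Every CM-KO pool was far above every WT pool, and the log2 fold change was 1.92 (SE 0.11, adjusted p = 4.68e-05) with all pools and also 1.92 with CM-KO pool 3 alone (adjusted p = 0.00802). Trp53inp1, a p53-induced gene that promotes autophagy and cell death (chr4:11156412-11175230), was 30, 28.7 and 28.5 CPM in WT and 81.1, 99.2 and 85.8 in CM-KO. Its groups were as well separated (1.61 on the log2 scale, SE 0.08, adjusted p = 2.95e-05), and the value was 1.56 with CM-KO pool 3 alone (adjusted p = 0.00245). The stress-induced mTORC1 inhibitor gene Sesn2 was 20.9, 16.9 and 17 CPM in WT and 28.3, 37.2 and 37.5 in CM-KO (log2 fold change 0.92, SE 0.13, adjusted p = 0.00316). Among the CM-KO pools, pool 1 was the lowest for Cdkn1a, Trp53inp1 and Sesn2. Btg2, an antiproliferative gene, was 30.4, 25.2 and 30.1 CPM in WT and 47.6, 53.2 and 52.8 in CM-KO (0.84, SE 0.09, adjusted p = 0.000948). Of the other members with elements above, Zmat3, an RNA-binding protein gene, rose by 0.59 (adjusted p = 0.00131) and Ccng1, the cyclin G1 gene, by 0.52 (adjusted p = 0.00261). Mdm2, which encodes the ubiquitin ligase that degrades p53, rose by 0.43 (adjusted p = 0.00387), a call that ended without WT pool 2 (adjusted p = 0.0785). Zmat3, Ccng1 and Mdm2 were named for these roles, outside the naming rule. The list gave 7 to 12 calls with a pool left out, fewest without WT pool 2 (7), and 6 with CM-KO pool 3 alone, where its median was 0.33.

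Calls among targets of p53 that promote cell death were rises too, none of which passed with CM-KO pool 3 alone. Of 17 genes tested 10 rose (58.8%, against 3.57% over all genes tested) and 0 fell, with a median of 0.44. No p53 element was found in the windows of these 17. The 10 include the anoctamin gene Ano3 (0.79, adjusted p = 0.014), for which a part in cell death was not checked. Its call was lost without WT pool 2 (adjusted p = 0.0614) or CM-KO pool 2 (0.0795). Eda2r, a receptor gene of the TNF receptor family, was 9.72, 8.73 and 7.95 CPM in WT and 18.9, 21.6 and 18.6 in CM-KO. Its CM-KO pools were all above its WT pools (log2 fold change 1.17, SE 0.11, adjusted p = 0.000586). Tnfrsf10b, the mouse death receptor for TRAIL, was 9.72, 9.33 and 9.80 CPM in WT and 15.5, 17.5 and 15.4 in CM-KO (0.74, SE 0.10, adjusted p = 0.00287). Bax, which encodes the pore-forming protein of the outer mitochondrial membrane and was named for that role outside the rule, rose by 0.62 (adjusted p = 0.00475). The BH3-only genes Pmaip1, which is on both p53 lists, and Bbc3 rose by 1.46 (adjusted p = 0.0246) and 0.71 (adjusted p = 0.0271). Both calls were lost when leaving out WT pool 2 (adjusted p = 0.0757 and 0.0953), CM-KO pool 2 (0.136 and 0.124) or CM-KO pool 3 (0.0542 and 0.112). The list gave 3 calls without WT pool 2, 3 without CM-KO pool 2, 6 without CM-KO pool 3, and 0 with CM-KO pool 3 alone, where its median was 0.41. The median deviation of the list from the 6-pool mean was between -0.24 and -0.14 in WT pools and between 0.19 and 0.28 in CM-KO pools.

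Outside the p53 lists the largest rises at a mean of at least 5 CPM were in genes of various roles. Rcor2, a corepressor that links the REST and LSD1 complexes (chr19:7241690-7252591), was 38.1, 34.0 and 33.3 CPM in WT and 103, 140 and 136 in CM-KO. Its groups were far apart (1.85 on the log2 scale, SE 0.12, adjusted p = 5.62e-05), also with CM-KO pool 3 alone (adjusted p = 0.00245). Ppp1r3c, which brings a protein phosphatase to glycogen (chr19:36708523-36714070), was 75.5, 60.3 and 61.3 CPM in WT and 171, 218 and 226 in CM-KO (1.65, SE 0.12, adjusted p = 0.000248). Srsf6, an SR splicing factor whose own mRNA is under splicing control, was 206, 218 and 239 CPM in WT and 522, 597 and 584 in CM-KO (1.36, SE 0.08, adjusted p = 4.68e-05). In these 3 genes CM-KO pool 1 was again the lowest of the CM-KO pools and still far above any WT pool. Further rises of this size were in Cgref1, a growth-regulating EF-hand gene (1.83, adjusted p = 0.0014), Irx1, a homeobox gene (1.42, adjusted p = 0.000438), the zinc finger gene Zfp365 (1.41, adjusted p = 0.000948) and the immediate early gene Fos (1.34, adjusted p = 0.0023). Rhod, a small GTPase gene of endosome movement, rose by 1.3 (adjusted p = 5.62e-05), with 13.2, 13 and 13.7 CPM in WT and 30, 34.6 and 33.5 in CM-KO. Arrdc4, an arrestin-domain gene, rose by 1.25 (adjusted p = 6.59e-05) and Foxh1, a forkhead partner of SMAD proteins, by 1.18 (adjusted p = 0.00122). Below that level, and picked after its values were seen, Meioc had the largest log2 fold change of all called genes, 2.88 (SE 0.26, adjusted p = 0.000447). Meioc is known for meiotic prophase in germ cells, and it stood at 0.743, 0.868 and 1.1 CPM in WT and at 5.91, 8.16 and 6.20 in CM-KO.

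Footprints of the same pools are given beside these genes as a second readout, in which 35 of 15249 genes tested (0.23%) were called, 13 higher (0.0853%) and 22 lower (0.144%). Cdkn1a footprints were 12.4 CPM in WT and 57.7 in CM-KO (log2 fold change 2.23, adjusted p = 0.000948). Eda2r (1.78, adjusted p = 0.011) and Tnfrsf10b (0.91, adjusted p = 0.0315) were called higher in footprints as well. Trp53inp1 footprints were 12.3 and 19.4 CPM (0.67, adjusted p = 0.088) and missed the threshold. Among the falls described below, Fbxl22 (-0.87, adjusted p = 0.00625) and Mylpf (-0.77, adjusted p = 0.0349) were called lower in footprints. Myoz2 (-0.76, adjusted p = 0.261) was not. Rcor2 footprints were 27.0 and 23.4 CPM (-0.20, SE 0.11, adjusted p = 0.657), Ppp1r3c footprints 64.7 and 54 (-0.26, SE 0.10, adjusted p = 0.459) and Srsf6 footprints 295 and 291 (-0.02, SE 0.08, adjusted p = 0.97). For these 3 genes the RNA was higher in CM-KO and the footprints were not called in either direction. The corepressor gene Mta1 was at 88.3 and 73.9 CPM in footprints (-0.26, adjusted p = 0.251) and Irx1 at 7.55 and 4.52 (-0.74, adjusted p = 0.239). The difference between the RNA and the footprint change was not tested here.

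**Figure D3:**
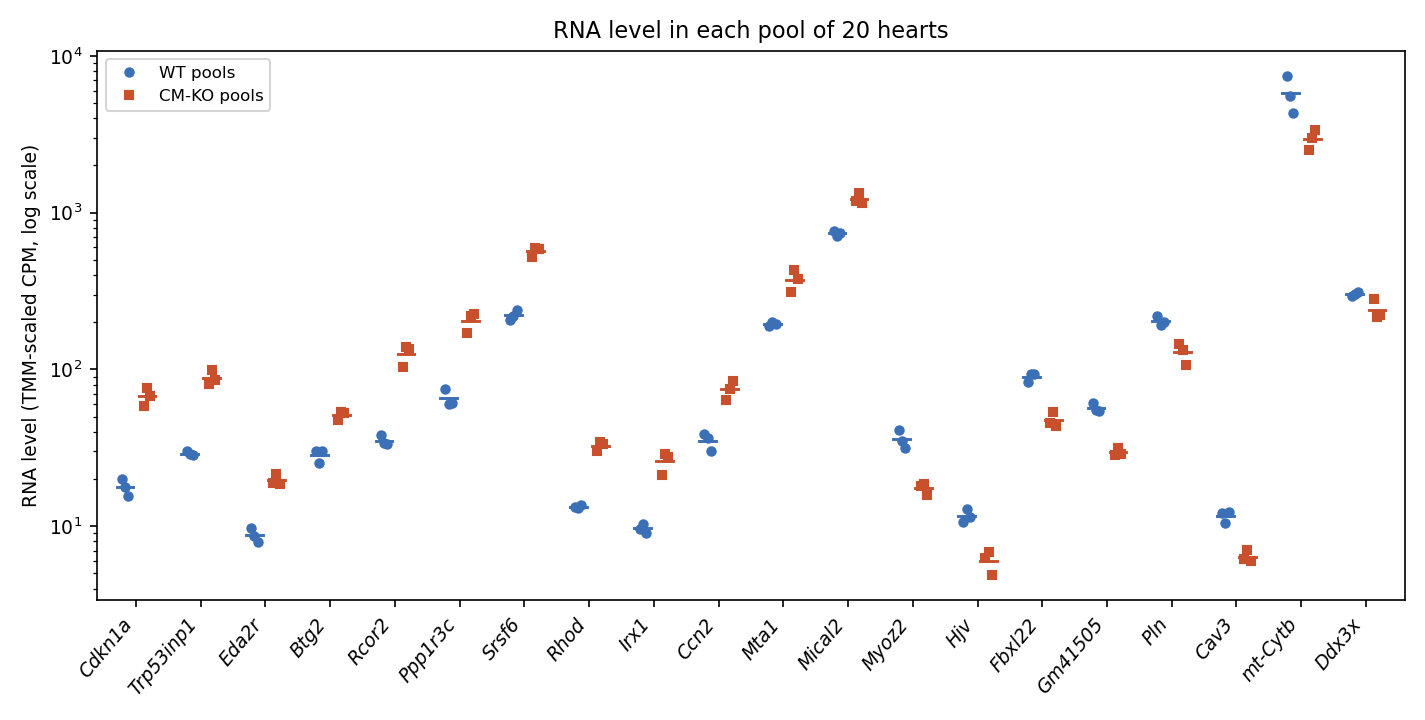
RNA level (TMM-scaled CPM, log axis) of 20 genes in each pool of 20 hearts, blue circles for the 3 WT pools and red squares for the 3 CM-KO pools, with a line at each group mean. The groups do not overlap in any of the 20 genes, all called except Ddx3x, whose CM-KO pool 1 (281 CPM) lies close to the lowest WT pool (294 CPM). The called genes were picked from calls in these same pools, which nearly fixes that separation. Of 17147 genes tested, 3728 (21.7%) show no overlap.

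The largest falls at a mean of at least 5 CPM were led by Myoz2, with mt-Cytb, described below with the mitochondrial genes, next to Hjv. Myoz2, a calcineurin-binding gene of the Z-disc, was 41.4, 35.2 and 31.5 CPM in WT and 18, 18.5 and 15.9 in CM-KO. Its lowest WT pool was well above the highest CM-KO pool, and the log2 fold change was -1.04 (SE 0.11, adjusted p = 0.000948), or -1.17 with CM-KO pool 3 alone (adjusted p = 0.0444). Fbxl22, which encodes an F-box protein of the sarcomere, was 82.8, 93.2 and 93.1 CPM in WT and 45.7, 53.4 and 43.8 in CM-KO (-0.92, SE 0.09, adjusted p = 0.000586). Hjv, the gene for the BMP co-receptor hemojuvelin, was 10.7, 12.8 and 11.5 CPM in WT and 6.29, 6.84 and 4.86 in CM-KO (-0.97, SE 0.16, adjusted p = 0.00636). The non-coding Gm41505 fell by 0.94 (adjusted p = 0.000272), with 60.9, 54.8 and 54.3 CPM in WT and 28.5, 31.6 and 28.7 in CM-KO. Cav3, the muscle caveolin gene, fell by 0.87 (adjusted p = 0.00516), Pxylp1, a phosphatase gene of glycosaminoglycan synthesis, by 0.85 (adjusted p = 0.0012), the WD repeat gene Wdr93 by 0.83 (adjusted p = 0.00199) and Pirt, a regulator gene of TRP channels, by 0.82 (adjusted p = 0.00247). The uncharacterised A530016L24Rik fell by 0.89 (adjusted p = 0.00261). Mylpf, the regulatory light chain gene of fast skeletal muscle, fell by 0.83 (adjusted p = 0.0067).

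Among abundant transcripts, ranked by CPM without a correction for length, both rises and falls were called. Mical2, an enzyme gene of actin oxidation, was 767, 711 and 738 CPM in WT and 1187, 1333 and 1158 in CM-KO (log2 fold change 0.73, SE 0.08, adjusted p = 0.00103). The cell cycle activator gene Ccnd2 was 979, 935 and 959 CPM in WT and 1356, 1525 and 1430 in CM-KO (0.59, SE 0.08, adjusted p = 0.00213). In both the lowest CM-KO pool was well above the highest WT pool. Gnas, the gene of the stimulatory G protein, rose by 0.58 (adjusted p = 0.00632). Ttn, which encodes titin, was 6308, 5739 and 6313 CPM in WT and 8055, 8321 and 7580 in CM-KO (0.38, SE 0.09, adjusted p = 0.0364). The call of Ttn was lost when WT pool 2 (adjusted p = 0.289), CM-KO pool 1 (0.11), CM-KO pool 2 (0.166) or CM-KO pool 3 (0.0639) was left out. Myl2, the ventricular light chain gene, was 1131, 968 and 1000 CPM in WT and 736, 798 and 642 in CM-KO (-0.51, SE 0.10, adjusted p = 0.0154), and its call ended without CM-KO pool 3 (adjusted p = 0.0545).

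Contractile genes were split in direction and most were not called. Of 18 thick filament and M-band genes 1 rose and 2 fell (median -0.07), of 18 thin filament genes 1 rose and 0 fell (median -0.01), and of 25 Z-disc and costamere genes 2 rose and 5 fell (median -0.02), against 3.57% higher and 0.805% lower over all genes tested. The 5 Z-disc and costamere genes that fell were Myoz2, Fbxl22, Cav3, the small heat shock protein gene Cryab and Smpx, a small muscle protein gene, and the count was 5 with each pool left out and 4 with CM-KO pool 3 alone. Cryab was 196, 190 and 183 CPM in WT and 106, 143 and 119 in CM-KO (log2 fold change -0.63, SE 0.10, adjusted p = 0.00567). Cryab also counts among the chaperones below. The thin filament gene that rose was Tnnt1, the slow skeletal troponin T gene, with 31.0, 25.7 and 29.4 CPM in WT and 41.6, 51.6 and 42.8 in CM-KO (0.66, SE 0.10, adjusted p = 0.00501). The major cardiac chains were not called and stood near the median of all genes: Myh6 at -0.03, Myh7 at -0.06, Actc1 at 0.09 and Tnnt2, whose promoter drives the Cre, at 0.11 (adjusted p = 0.62). With CM-KO pool 3 alone no thick or thin filament gene was called and no Z-disc gene rose. Without CM-KO pool 2 there was 1 fall in the thick filament list and without CM-KO pool 3 there were 0. Its rise was Ttn, described above. Leaving out WT pool 1 or CM-KO pool 3 gave 1 rise in the Z-disc list, WT pool 2 or CM-KO pool 2 gave 0, and in the thin filament list leaving out WT pool 1 or CM-KO pool 1 gave 2.

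Genes of excitation and calcium cycling showed the same mixture. Of 24 calcium-handling genes 1 rose and 2 fell (median 0.05), of 21 potassium, sodium and pacemaker channel genes 1 rose and 3 fell (median -0.10), and of 17 junction genes of the intercalated disc 0 rose and 1 fell (median 0.06). The shares that rose in the calcium and channel lists, 4.17 and 4.76%, were near the 3.57% of all genes tested. The shares that fell were 8.33, 14.3 and 5.88% in the 3 lists, against 0.805% of all genes tested. Pln, the inhibitor of the calcium pump of the sarcoplasmic reticulum, was 219, 193 and 201 CPM in WT and 146, 134 and 107 in CM-KO. All CM-KO pools were below all WT pools, and pool 3 was the lowest (log2 fold change -0.67, SE 0.11, adjusted p = 0.00705, and -0.94 with CM-KO pool 3 alone, adjusted p = 0.0221). Kcnh2, which encodes the channel of the rapid delayed rectifier current, was 127, 148 and 152 CPM in WT and 211, 292 and 236 in CM-KO (0.79, SE 0.12, adjusted p = 0.00516). Kcne1, the accessory subunit gene of the slow delayed rectifier, was 11.3, 10.5 and 10.4 CPM in WT and 6.54, 6.17 and 6.20 in CM-KO (-0.77, SE 0.13, adjusted p = 0.00695). Casq1, a calcium store protein gene, fell by 0.55 (adjusted p = 0.00614), a call that ended without WT pool 2 (adjusted p = 0.0519). When WT pool 2 was left out, there was 1 fall in the calcium list and 1 in the channel list, and leaving out CM-KO pool 3 left 1 in the channel list. The rise in the calcium list was called with WT pool 3 left out and with no other pool left out. The junction call was lost without WT pool 2 or any CM-KO pool. In the fit with CM-KO pool 3 alone the calcium list gave 0 rises and 1 fall, the channel list 1 rise and 1 fall and the junction list 0 calls.

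Transcription factors and growth genes of the chambers rose in part. Of 30 core cardiac transcription factor genes 3 rose and 0 fell (median 0.04), and of 29 genes of chamber growth and trabeculation 5 rose and 1 fell (median 0.15). Among all genes tested 3.57% were higher and 0.805% lower. Leaving out WT pool 1 gave 2 rises and 2 falls in the transcription factor list. Leaving out WT pool 2, CM-KO pool 2 or CM-KO pool 3 gave 2 rises and 0 falls there, and leaving out CM-KO pool 1 gave 4 rises. Srf, the serum response factor gene, was 127, 132 and 134 CPM in WT and 185, 250 and 219 in CM-KO (log2 fold change 0.73, SE 0.10, adjusted p = 0.00263, and 0.74 with CM-KO pool 3 alone, adjusted p = 0.0221). Irx1, described above, was 9.65, 10.4 and 9.00 CPM in WT and 21.2, 29.0 and 27.5 in CM-KO. Another was Nkx2-5 (0.59, adjusted p = 0.018), whose call was lost when leaving out WT pool 1 (adjusted p = 0.0537), WT pool 2 (0.0722), CM-KO pool 2 (0.0559) or CM-KO pool 3 (0.0542). Gata4 (0.05), Tbx5 (0.02), Mef2c (0.11) and Hand2 (-0.11) were not called. Nppa, the atrial natriuretic peptide gene, was 229, 244 and 229 CPM in WT and 299, 348 and 350 in CM-KO (0.51, SE 0.08, adjusted p = 0.00553). Nppb, its B-type relative, rose by 0.76 (adjusted p = 0.00984), which was lost without CM-KO pool 2 (adjusted p = 0.0596). The chamber list gave 3 rises without WT pool 2 and 3 without CM-KO pool 2, and 2 with CM-KO pool 3 alone. Its fall was Bmp10, a growth factor gene of trabeculation (-0.32, adjusted p = 0.0358), which was named after its values were seen and lost its call without any pool but WT pool 1 (adjusted p up to 0.203, without WT pool 2). The 3 rises of transcription factor genes held with CM-KO pool 3 alone, where no chamber gene fell.

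Among genes that answer to SRF or to YAP the calls were all rises. Of 27 SRF targets and immediate early genes 7 rose (25.9%) and 0 fell (median 0.30). Btg2, given above with the p53 targets, is among these 7. Of 18 YAP and TEAD targets 3 rose (16.7%) and 0 fell (median 0.18), against 3.57% higher over all genes tested. Fos, a subunit gene of the AP-1 transcription factor, was 5.47, 4.61 and 4.25 CPM in WT and 9.47, 13.6 and 13 in CM-KO (log2 fold change 1.34, SE 0.18, adjusted p = 0.0023). Jund, another AP-1 gene, was 193, 220 and 204 CPM in WT and 300, 441 and 370 in CM-KO (0.85, SE 0.12, adjusted p = 0.00501). Ccn2, a matricellular growth factor gene that YAP activates, was 38.5, 36.3 and 30 CPM in WT and 64.0, 75.1 and 84.5 in CM-KO (1.1, SE 0.12, adjusted p = 0.00104, and 1.28 with CM-KO pool 3 alone, adjusted p = 0.0221). In each of these genes the CM-KO pools were all above the WT pools. The SRF list gave 4 rises without either WT pool 2 or CM-KO pool 2 and 3 with CM-KO pool 3 alone. In the YAP list only Ccn2 was called when WT pool 2, CM-KO pool 2 or CM-KO pool 3 was left out, and with CM-KO pool 3 alone.

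**Figure D4:**
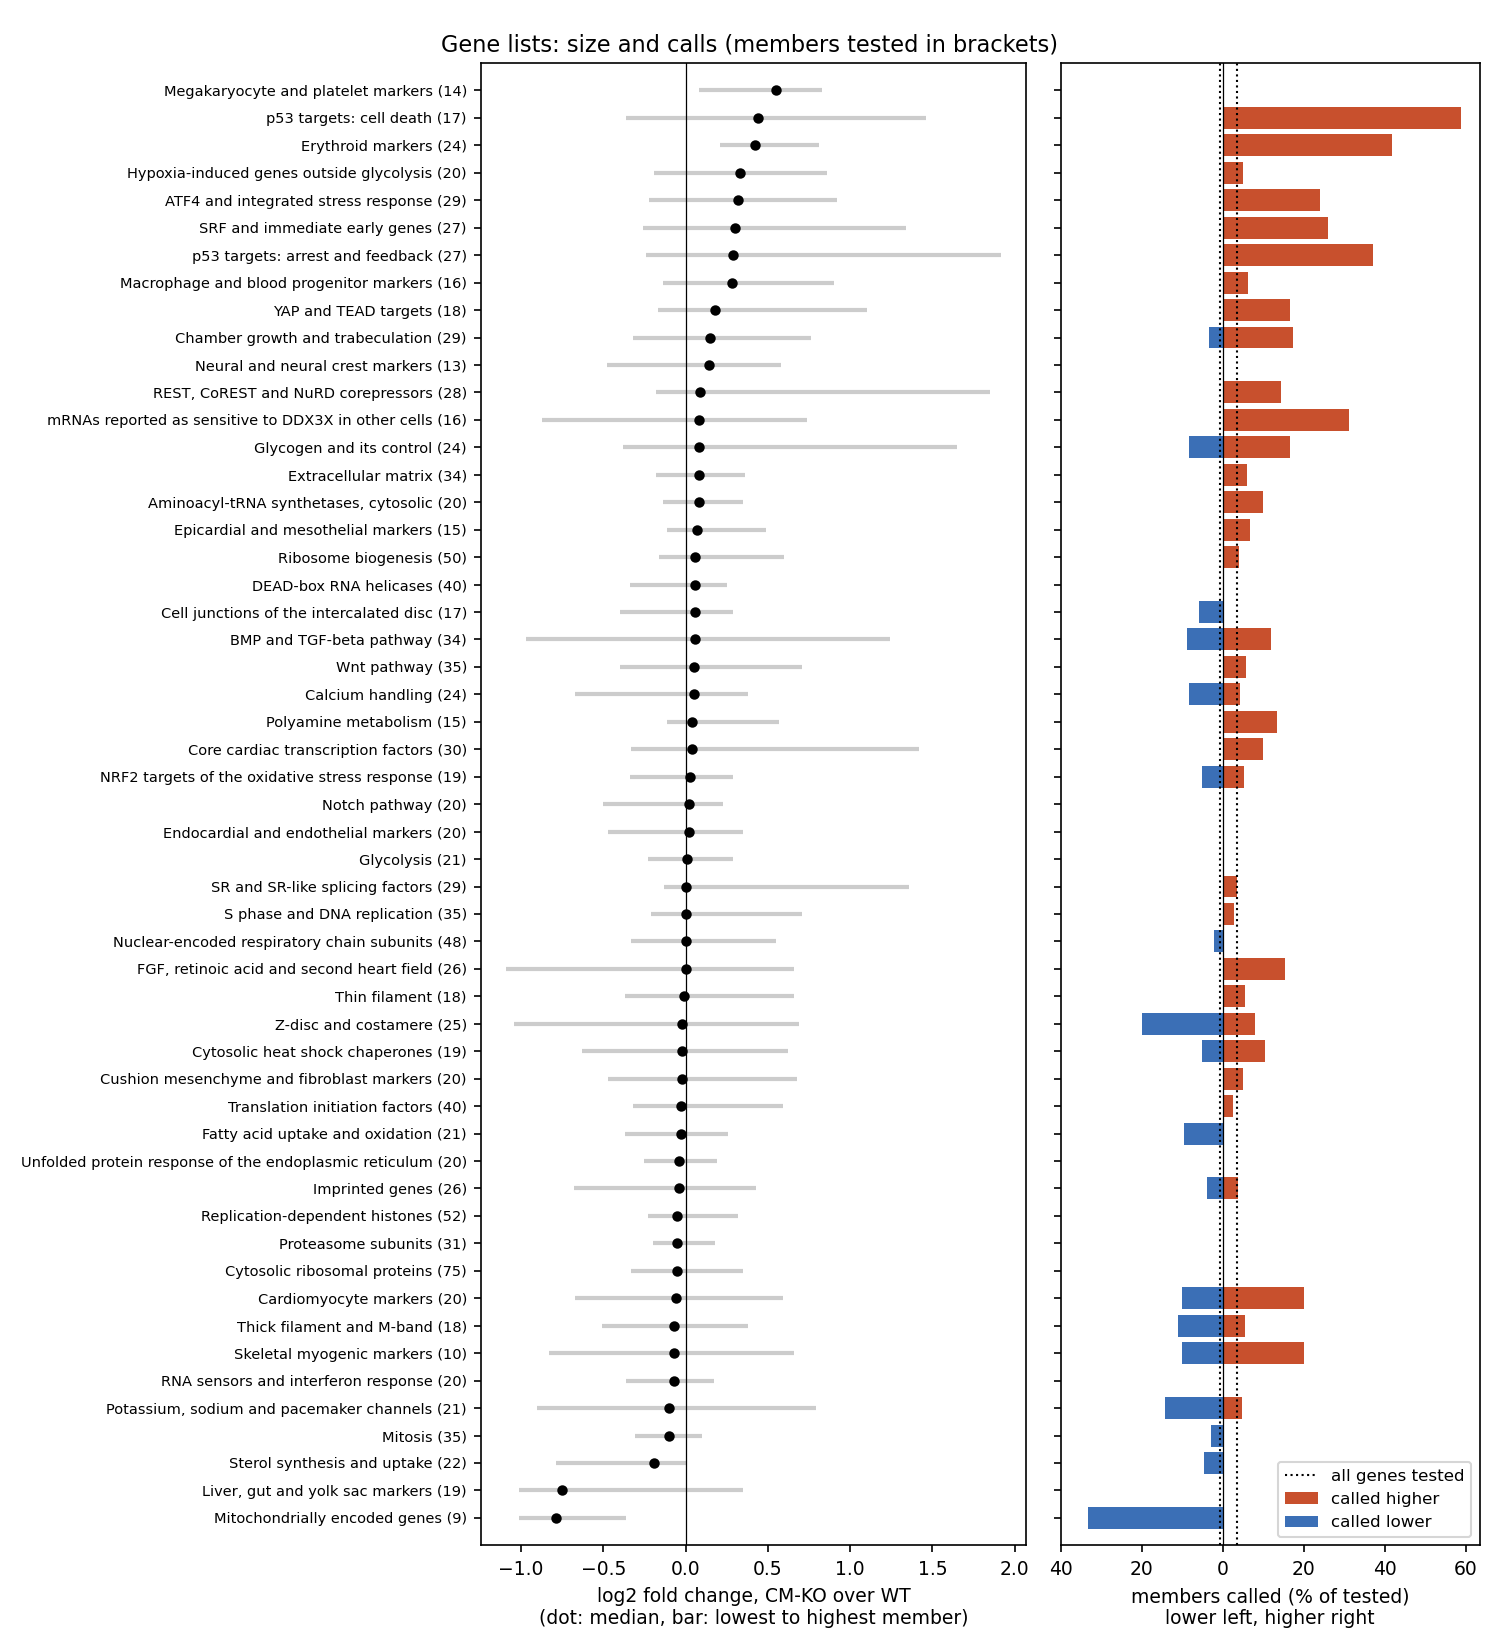
Gene lists ordered by median log2 fold change of CM-KO over WT, with the lowest and highest member as a bar and the share of tested members called higher (red) or lower (blue) at the right, in percent. The p53 lists have 37.0 and 58.8% called higher, erythroid markers 41.7%, and mitochondrially encoded genes 33.3% called lower. Dotted lines mark all genes tested (3.57 and 0.805%).

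Stress responses other than p53 were called in part or not at all. Of 29 genes that ATF4 or the integrated stress response controls, 7 rose (24.1%, against 3.57% over all genes tested) and 0 fell (median 0.32). Mthfd2, a mitochondrial folate enzyme gene that ATF4 activates, was 47.7, 39.5 and 50.1 CPM in WT and 65.7, 69.0 and 80.1 in CM-KO (log2 fold change 0.65, SE 0.10, adjusted p = 0.006). Sesn2, given above, is on this list too. Atf4 itself was 138, 127 and 131 CPM in WT and 154, 169 and 188 in CM-KO (0.37, SE 0.08, adjusted p = 0.03), a call lost on leaving out WT pool 2 (adjusted p = 0.244), CM-KO pool 2 (0.111) or CM-KO pool 3 (0.0986). Ddit3, the gene of the transcription factor CHOP, was not called (0.04). The list held 2 rises on leaving out WT pool 2, while leaving out CM-KO pool 1, 2 or 3 left 4, 3 and 3, and CM-KO pool 3 alone gave 2 rises. The median deviation of the list was 0.02, -0.24 and -0.19 in WT pools and 0.05, 0.11 and 0.32 in CM-KO pools. WT pool 1 and CM-KO pool 1 thus lay close together.

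Among 20 cytosolic aminoacyl-tRNA synthetase genes 2 rose and 0 fell (median 0.08), and neither rise held without WT pool 2, CM-KO pool 1 or CM-KO pool 3, or with CM-KO pool 3 alone. Of 20 genes of the unfolded protein response of the endoplasmic reticulum 0 rose and 0 fell (median -0.04). Of 19 cytosolic chaperones 2 rose and 1 fell (median -0.02), and the stable ones were the Hsp110 family gene Hspa4l, which rose from 46.9, 41.4 and 41.7 CPM to 66.2, 66.6 and 66.8 (log2 fold change 0.62, SE 0.07, adjusted p = 0.00104), and Cryab, which fell. Chaperones gave 0 rises and 1 fall with CM-KO pool 3 alone. Of 19 NRF2 targets 1 rose and 1 fell (median 0.03), and both calls were lost with each pool left out in turn and with CM-KO pool 3 alone. Of 20 RNA sensors and interferon-induced genes 0 rose and 0 fell (median -0.07). Of 31 proteasome subunit genes 0 rose and 0 fell (median -0.05). Beside the lists of this paragraph, 3.57% of all genes tested were higher and 0.805% lower.

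Calls among genes of energy metabolism differed between lists, and those of mitochondrially encoded genes depended on which pools were kept. Over all genes tested 3.57% were higher and 0.805% lower. All 9 mitochondrially encoded genes tested had log2 fold changes below 0, from -1.01 to -0.36 with a median of -0.79, and 3 fell. mt-Cytb, the cytochrome b gene, was 7473, 5510 and 4341 CPM in WT and 2499, 2976 and 3375 in CM-KO (-0.97, SE 0.19, adjusted p = 0.0273). mt-Nd1, a subunit gene of complex I, fell by 0.79 (adjusted p = 0.016), and mt-Co1, a subunit gene of cytochrome oxidase, by 0.54 (adjusted p = 0.0303). WT pool 1 was the highest and WT pool 3 the lowest of the WT pools, and the gap from WT pool 3 to the highest CM-KO pool was small. The mt-Nd1 call ended without CM-KO pool 2 (adjusted p = 0.0915). The mt-Cytb call ended without that pool (0.11), without WT pool 2 (0.0783) or without CM-KO pool 1 (0.0614), and the mt-Co1 call without these pools (0.159, 0.0828 and 0.0575) or without CM-KO pool 3 (0.0724). Leaving out WT pool 1, 2 or 3 gave 5, 1 and 7 falls in the list, leaving out CM-KO pool 1, 2 or 3 gave 1, 0 and 2, and CM-KO pool 3 alone gave 0. The summed level of the 9 genes was 47502, 37270 and 31611 CPM in WT and 22873, 23290 and 25914 in CM-KO.

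Of 48 nuclear genes of the respiratory chain 0 rose and 1 fell (median 0.00), and of 21 genes of fatty acid uptake and oxidation 0 rose and 2 fell (median -0.03). Shares over all genes tested were 3.57% higher and 0.805% lower. The respiratory chain call was lost with each pool left out in turn, and neither fatty acid call held without WT pool 2, CM-KO pool 2 or CM-KO pool 3. CM-KO pool 3 taken alone gave 1 rise and 0 falls among respiratory chain genes and no call among fatty acid genes. Of 21 glycolysis genes 0 rose and 0 fell (median 0.01). Of 20 hypoxia-induced genes outside glycolysis 1 rose and 0 fell (median 0.33). This list also differed between pools of the same genotype, with WT pool 2 near WT pool 3, unlike on the first principal component. Its median deviations were 0.21, -0.29 and -0.36 in WT pools and -0.02, 0.04 and 0.44 in CM-KO pools. Its count was 0 without WT pool 2, CM-KO pool 2 or CM-KO pool 3 and with CM-KO pool 3 alone, 3 without WT pool 1 and 2 without CM-KO pool 1. With the long-gene level as a covariate this list gave 5 rises and 0 falls with a median of 0.31. The part of other pool differences in the median was not tested. Of 22 genes of sterol synthesis and uptake 0 rose and 1 fell (median -0.19), a call lost without WT pool 2 or any CM-KO pool, and with CM-KO pool 3 alone. Of 24 genes of glycogen and its control 4 rose and 2 fell (median 0.08). The stable rises there were Ppp1r3c and Gbe1, the glycogen branching enzyme gene, with 47.5, 39.9 and 37.0 CPM in WT and 63.9, 66.4 and 78.5 in CM-KO (log2 fold change 0.75, SE 0.11, adjusted p = 0.00387). Leaving out WT pool 2, CM-KO pool 2 or CM-KO pool 3 gave 2 rises and 0 falls in the glycogen list, and leaving out WT pool 1 gave 0 falls. The same list gave 2 rises and 0 falls with CM-KO pool 3 alone. Of 15 polyamine genes 2 rose and 0 fell (median 0.04), and the stable one was Srm, the spermidine synthase gene, with 81.0, 82.7 and 92.0 CPM in WT and 122, 130 and 128 in CM-KO (0.57, SE 0.07, adjusted p = 0.00179). The other, the ornithine decarboxylase gene Odc1 (0.48, adjusted p = 0.0107), missed the threshold without CM-KO pool 2 (adjusted p = 0.0681). With CM-KO pool 3 alone neither was called (adjusted p = 0.0579 for both).

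**Figure D5:**
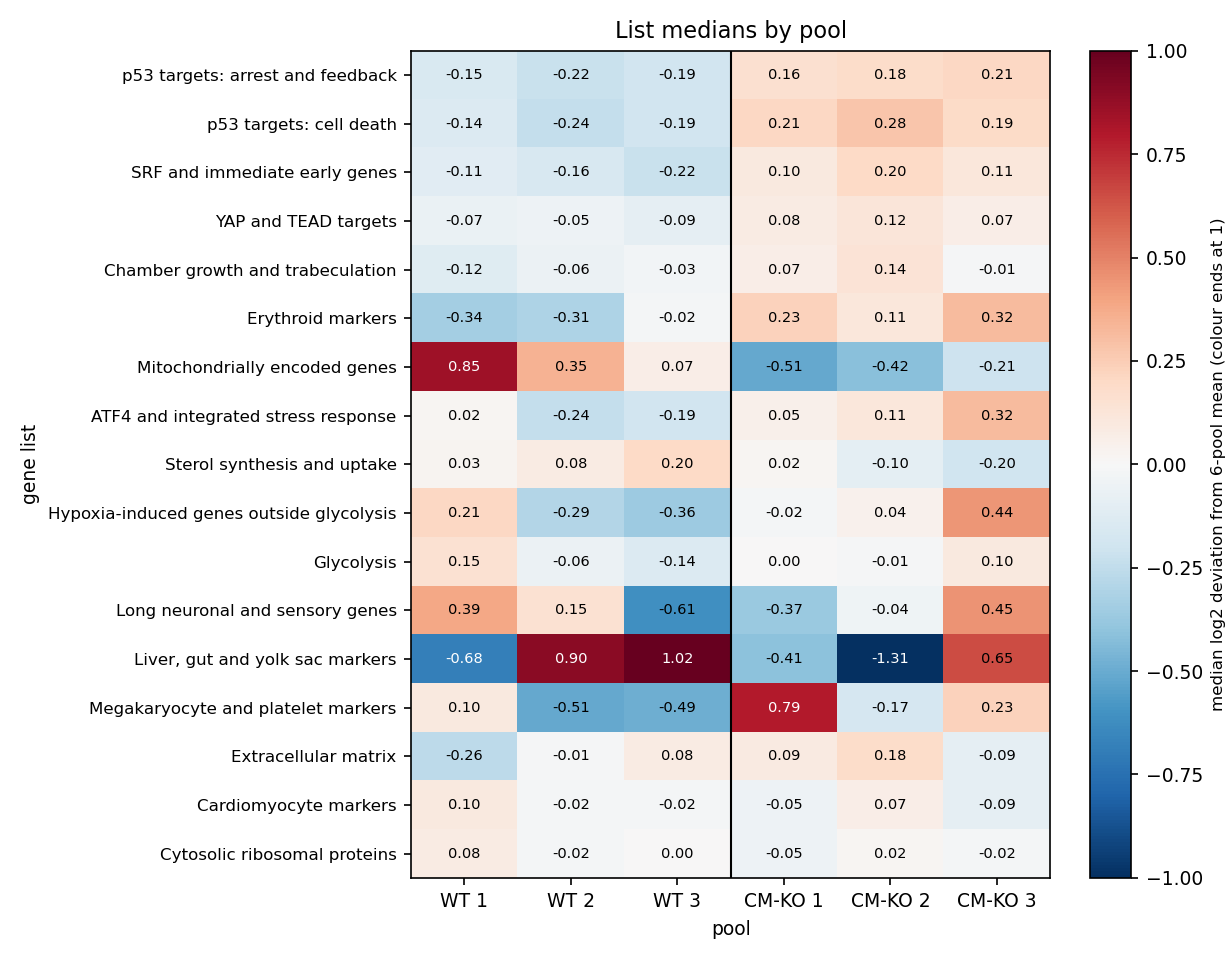
Median log2 deviation from the mean of the 6 pools for 17 gene lists in each pool, red above and blue below that mean, with the value in each cell. The medians of the p53 lists separate the genotypes (-0.24 to -0.14 in WT and 0.16 to 0.28 in CM-KO). So do several other lists, among them SRF and immediate early genes (-0.22 to -0.11 and 0.1 to 0.2), YAP targets, erythroid markers and, inverted, mitochondrially encoded genes. Long neuronal and sensory genes run from -0.61 to 0.45 across genotypes. The lists were chosen with earlier results of these data known.

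Genes of the cell cycle and of gene expression were mostly uncalled, as were genes in general, with 3.57% higher and 0.805% lower over all genes tested. Of 35 genes of S phase and DNA replication 1 rose and 0 fell (median 0.00), of 35 mitosis genes 0 rose and 1 fell (median -0.10), and of 52 replication-dependent histone genes 0 rose and 0 fell (median -0.05). The S phase gene that rose was E2f8, a repressor of the E2F family, with 54.7, 56.7 and 60 CPM in WT and 84.6, 99.7 and 95.7 in CM-KO (log2 fold change 0.71, SE 0.08, adjusted p = 0.00103). Of 75 cytosolic ribosomal protein genes 0 rose and 0 fell (median -0.05), of 50 ribosome biogenesis genes 2 rose and 0 fell (median 0.06), of 40 initiation factor genes 1 rose and 0 fell (median -0.03), and of 40 DEAD-box helicase genes 0 rose and 0 fell (median 0.06). Ubtf, an activator gene of ribosomal RNA synthesis, was 119, 131 and 127 CPM in WT and 179, 209 and 184 in CM-KO (0.60, SE 0.08, adjusted p = 0.00199). Eif5, which encodes a factor of start codon recognition, was 201, 200 and 206 CPM in WT and 308, 288 and 315 in CM-KO (0.59, SE 0.07, adjusted p = 0.00104). S phase, biogenesis and initiation factor genes gave 1 rise each with CM-KO pool 3 alone, and mitosis genes 0 calls. The other rise among biogenesis genes was lost without any pool but WT pool 3, and the mitosis call without WT pool 1, WT pool 2, CM-KO pool 2 or CM-KO pool 3. Of 29 SR and SR-like splicing factor genes 1 rose and 0 fell (median 0.00), and the one that rose was Srsf6, described above, also the only one with CM-KO pool 3 alone.

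Of 28 genes of REST, CoREST and NuRD corepressors 4 rose and 0 fell (median 0.09). Besides Rcor2 the stable rise was Mta1, a subunit gene of the NuRD complex, with 190, 201 and 195 CPM in WT and 314, 429 and 379 in CM-KO. Its groups lay far apart (log2 fold change 0.94, SE 0.10, adjusted p = 0.00103, and 0.96 with CM-KO pool 3 alone, adjusted p = 0.0163). Other subunit genes of these complexes were not called, such as Hdac1 at -0.04, Kdm1a at 0.04 and Chd4 at 0.09. Without WT pool 1, WT pool 2 or CM-KO pool 2 the list gave 2 rises, and the same number with CM-KO pool 3 alone. Of 16 mRNAs described as DDX3X-sensitive in other cell types, 5 rose (31.2%, against 3.57% over all genes tested) and 0 fell (median 0.08). The rises included Ccnd2 and Csnk1e, a casein kinase gene with 122, 129 and 128 CPM in WT and 172, 206 and 202 in CM-KO (0.62, SE 0.08, adjusted p = 0.0023). Without CM-KO pool 2 that list gave 2 rises, without WT pool 2 it gave 3, and with CM-KO pool 3 alone 1.

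Calls in signalling pathways differed between lists, with feedback genes of FGF signalling among the rises. Over all genes tested 3.57% were higher and 0.805% lower. Of 26 genes of FGF, retinoic acid and the second heart field 4 rose and 0 fell (median 0.00). Spry4, an inhibitor gene of receptor tyrosine kinase signalling that the pathway itself induces, was 23.9, 24.6 and 21.1 CPM in WT and 36.1, 38.8 and 35.0 in CM-KO (log2 fold change 0.66, SE 0.08, adjusted p = 0.00193). Spry2 (0.47, adjusted p = 0.0117), the ETS factor gene Etv4 (0.47, adjusted p = 0.0133) and the ERK phosphatase gene Dusp6 (0.37, adjusted p = 0.0114) also rose, but missed the threshold without WT pool 2 (adjusted p = 0.0883, 0.0708 and 0.155), and Spry2 and Etv4 also without CM-KO pool 2 (0.0603 and 0.0715) and Spry2 without CM-KO pool 3 (0.0501). No gene of the FGF list was called with CM-KO pool 3 alone, Spry4 included (adjusted p = 0.106). Of 34 BMP and TGF-beta genes 4 rose and 3 fell (median 0.06). Smad4, the shared SMAD of both branches, was 183, 164 and 163 CPM in WT and 234, 256 and 262 in CM-KO (0.56, SE 0.08, adjusted p = 0.00262), and Hjv, given above, is on this list. Of 35 Wnt genes 2 rose and 0 fell (median 0.05). These were Csnk1e and the dishevelled gene Dvl3, with 93.4, 105 and 100 CPM in WT and 146, 177 and 167 in CM-KO (0.71, SE 0.08, adjusted p = 0.0014). Leaving out WT pool 1 gave 2 rises and 3 falls in the Wnt list, and leaving out any other pool gave 0 falls there. Of 20 Notch genes 0 rose and 0 fell (median 0.02). Of 34 extracellular matrix genes 2 rose and 0 fell (median 0.08), both lost when WT pool 1, WT pool 2, CM-KO pool 2 or CM-KO pool 3 was left out. Of 26 imprinted genes 1 rose and 1 fell (median -0.04), and leaving out any pool ended both calls, except that the rise held without WT pool 3. With CM-KO pool 3 alone the Wnt list gave 2 rises, and the matrix and imprinted lists gave 0 calls. Leaving out WT pool 2, CM-KO pool 2 or CM-KO pool 3 gave 2 rises and 1 fall in the BMP list, and CM-KO pool 3 alone gave 1 rise.

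The summed RNA level of cardiomyocyte markers was about as high in CM-KO as in WT. Of 20 cardiomyocyte markers 4 rose and 2 fell (median -0.06), and their summed level was 22465 to 25012 CPM in WT and 24783 to 26920 in CM-KO. On leaving out WT pool 2, CM-KO pool 2 or CM-KO pool 3, just 1 of them rose, and with CM-KO pool 3 alone 2 rose and 1 fell. Of 24 erythroid markers 10 rose (41.7%, against 3.57% over all genes tested) and 0 fell, all 24 were above 0, and the median was 0.42. The adult beta-globin gene Hbb-bs was 13.6, 9.54 and 11.6 CPM in WT and 17.2, 25.5 and 18.1 in CM-KO (log2 fold change 0.81, SE 0.17, adjusted p = 0.0287), and near-identical globin copies may share reads. The call of Hbb-bs was lost on leaving out WT pool 2 (adjusted p = 0.123), CM-KO pool 2 (0.0987) or CM-KO pool 3 (0.0501). Erythroid calls numbered 3, 0 and 17 on leaving out WT pool 1, 2 or 3, and 1, 1 and 0 on leaving out CM-KO pool 1, 2 or 3. With CM-KO pool 3 alone there were 0. The erythroid sum was 15196, 10087 and 13345 CPM in WT and 17696, 14435 and 17425 in CM-KO, so that CM-KO pool 2 lay below WT pool 1.

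Of 14 megakaryocyte and platelet markers 0 were called (median 0.55), with sums of 260 to 315 CPM in WT and 302 to 444 in CM-KO. For this and the next lists, the shares over all genes tested were 3.57% higher and 0.805% lower. Of 16 macrophage and blood progenitor markers 1 rose (median 0.28), a call that was lost without any WT pool, without CM-KO pool 3 and with CM-KO pool 3 alone. Of 19 liver, gut and yolk sac markers 0 were called (median -0.75, and 0.06 with CM-KO pool 3 alone), and their sums were 142 to 540 CPM in the WT and 87.2 to 418 in the CM-KO pools. Among 20 endocardial and endothelial markers 0 were called (median 0.02). Of 15 epicardial and mesothelial markers 1 rose (median 0.07), and of 20 cushion mesenchyme and fibroblast markers 1 rose (median -0.02). The epicardial call held only with WT pool 1 left out, and the cushion call was lost without WT pool 1, CM-KO pool 2 or CM-KO pool 3. Of 13 neural and neural crest markers 0 were called (median 0.14). Of 10 skeletal myogenic markers 2 rose and 1 fell (median -0.07), with Tnnt1 and Mylpf, given above, as the stable ones. With CM-KO pool 3 alone no epicardial or skeletal myogenic marker was called, and 1 cushion marker rose. The part of blood, liver and neural RNA in the other results was not tested.

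Among non-coding RNA genes the stable calls were few. Neat1, the scaffold RNA of paraspeckles, was 20.3, 16.6 and 16.6 CPM in WT and 30.8, 25.4 and 31.4 in CM-KO. No CM-KO pool overlapped WT, and the log2 fold change was 0.72 (SE 0.11, adjusted p = 0.00523). Gm41505, described above, and 2810429I04Rik fell, the latter from 20.1, 19.4 and 18.8 CPM to 12.5, 13.3 and 12.9 (-0.59, SE 0.09, adjusted p = 0.00426). Xist, the RNA that coats the inactive X chromosome, was 319 to 411 CPM in WT and 287 to 401 in CM-KO (-0.07, SE 0.13, adjusted p = 0.916), with overlapping groups, and its sign turned without WT pool 3 (0.06) or CM-KO pool 2 (0.04).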

How the data were processed

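RNA and footprint libraries were made from the same pools of snap-frozen hearts. Per the labels' protocols, 0.75 µg of total RNA was heat-fragmented, depleted of ribosomal RNA, ligated to adapters and sequenced, and the sequencing provider processed the reads in its own pipeline, using mm39 (GRCm39), and counted them per gene with its own algorithm. No aligner, annotation release, strand setting or use of molecular identifiers is named there. Values per gene in the table the authors deposited are raw counts. The authors' RPM columns served only to check library totals. The authors' ratio columns (ribosome occupancy) were not used. The log2 fold changes and adjusted p-values in the authors' deposited table are, for RNA, the output of DESeq2 as the labels' protocols say, and entered no result here.

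Of 21783 genes, 4618 had a blank in at least 1 pool, with 0.204% of RNA counts, and were left out. RNA counts of the 6 pools were tested with edgeR 4.0.16 (R 4.3.3, limma 3.58.1): TMM scaling, filterByExpr (minimum count 10, total 15), glmQLFit (robust) and glmQLFTest, with Benjamini-Hochberg adjustment over 17147 genes and calls at an adjusted p under 0.05. Footprint counts were tested the same way in their own libraries. With 3 against 3, an exact permutation test of 1 gene cannot go below 0.1. Intervals and CPM cover counting error and the spread between pools. The scripts were tested on simulated data.

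The members and the 54 gene lists were chosen with earlier results of these data known, so lists are described by counts and medians with no list test. Genes were named by a rule: the 14 largest rises and 14 largest falls among called genes of at least 5 CPM, the 8 most abundant called per direction, up to 5 called members per list (or 2 where none was called), 5 non-coding genes per direction, and Ddx3x, Y-linked genes, Xist, Tnnt2 and Afp. Some genes that the rule selected are not reported here. Gene IDs were matched to GENCODE vM39, of which 21594 were found. Alternatives were RLE and upper quartile scaling, other filters, no robust estimation, DESeq2 1.42.0, blanks as 0, a pool number block, an Afp covariate, abundant genes left out, CM-KO pool 3 alone, each pool left out and, added after the values were seen, a long-gene covariate. Reads of near-identical copies (globins, histones, Ddx3x and Ddx3y) and of overlapping genes may have been shared by the counting.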

Additional observations from a re-analysis of the deposited data

Results flagged for a closer look

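Y-linked transcripts gave reads in CM-KO pools although all hearts were labelled female and these genes entered no comparison. Ddx3y, which encodes the male counterpart of DDX3X, gave 106, 64 and 4 counts in CM-KO pools 1 to 3 and 2, 2 and 0 in WT pools 1 to 3. Uty had 174, 108 and 11 counts in CM-KO pools and blanks in WT. The translation factor gene Eif2s3y had 86 and 53 counts and the histone demethylase gene Kdm5d 86 and 39 counts in CM-KO pools 1 and 2, with blanks in CM-KO pool 3 and in WT. Whether these reads came from male hearts in the pools was not tested.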

How the results depend on the processing

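Calls numbered 367 (314 higher, 53 lower) with the pool number as a replicate block, where Ddx3x stood at -0.35 (adjusted p = 0.174). Pools of the same number share only a number: their deviations correlated by -0.43, 0.10 and -0.62 over 13589 genes, while WT pool 3 and CM-KO pool 1 correlated by 0.66. Calls numbered 294 (239 higher, 55 lower) with the Afp covariate, 126 (102, 24) with CM-KO pool 3 alone and 1686 (1239, 447) with the long-gene covariate. Requiring a change of 0.5 on the log2 scale left 287 (219, 68). Upper quartile scaling, which shifted the median of all genes by -0.04, gave 478 higher and 273 lower, or 63.6% higher against 81.6%. Other scalings, filters and DESeq2 gave 577 to 958 calls. With each pool left out there were 207 to 783 calls, 161 to 665 higher and 46 to 126 lower, Ddx3x ran from -0.48 to -0.27 and Xist from -0.21 to 0.06. Ddx3x passed with upper quartile scaling (-0.39, adjusted p = 0.0408), DESeq2 (-0.35, 0.00606) and the long-gene covariate (-0.34, 0.00777). Signs turned for Xist with the Afp covariate (0.00), without WT pool 3 (0.06) and without CM-KO pool 2 (0.04), for Tnnt2 with CM-KO pool 3 alone (-0.02) and for Afp in that fit (0.10), none of them called. The cause of these changes was not tested. Of 128 called named genes 32 kept their call in all 18 alternative settings. In the lowest quintile of level 0.117% of genes were called, with intervals reaching a median of 0.77 to either side. The part of sequencing depth in this was not tested.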
